A study of Mus musculus with 6 samples.

Results

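Serpins are a family of proteins that share one fold, most of which block serine or cysteine proteases, and their transcripts were examined in mouse pancreatic cancer cells with and without knockdown of Brca2. The members were 9 serpin genes taken by symbol, Serpinb1a, Serpinb5, Serpinb6a, Serpinb6b, Serpinb8, Serpinb9, Serpine2, Serpinh1 and Serpina1b. Of these 9, 5 were among the 10616 genes of the count table, namely Serpinb1a, Serpinb6a, Serpinb6b, Serpinh1 and Serpina1b. The other 4 were not analysed here. The set was chosen by the normalized counts of Serpinb1a, which were higher after the knockdown, so that contrast is given as a description, without a test. Serpinb9b, a gene of clade B (symbols beginning with Serpinb) outside the 9, is reported beside the members.

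The cells were KPC cells, a cultured mouse pancreatic ductal adenocarcinoma line. To ask how silencing of Brca2 alters the cancer cells themselves, 3 shBrca2 libraries, from cells carrying a lentiviral short hairpin RNA against Brca2, were compared with 3 shControl libraries, from cells carrying a non-targeting hairpin in the same pLKO.1 vector. Both lines went through puromycin selection and were grown in serum-containing medium without other cell types, and live cells negative for propidium iodide were sorted for 3' end RNA sequencing. Replicate numbers only name the libraries of a group, in the order of their records, and pair none across groups. The labels do not say whether these libraries came from separate cultures, and a legend of the study counts them as mice although it describes cells grown in dishes. The p-values therefore measure the spread between these libraries, which may be technical. Any other difference between the lines, such as an effect of the hairpin on other genes, cannot be told apart from silencing of Brca2.

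A typical serpin displays an exposed reactive centre loop as bait. When the target protease cuts this loop, the loop folds into the body of the serpin and the protease is trapped in a covalent complex, so that each serpin molecule is used once. Clade B serpins stay mostly inside cells and guard against misplaced granule and lysosomal proteases, whereas clade A serpins such as alpha-1-antitrypsin are secreted and act outside cells. Serpinh1, also named Hsp47, inhibits no protease and instead chaperones procollagen in the endoplasmic reticulum. Its transcription is a classical target of heat-shock factor 1 (HSF1), the stress factor with which the study is concerned. Mass spectrometry in the study placed SERPINH1 protein among those that differed most between the media of KPC-shBrca2 and KPC-shControl organoids. The values below are RNA of cells grown in dishes and were not tested against that secreted protein.

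The start regions of Serpinh1 and Serpinb6a are shown because the former is the collagen chaperone tied to HSF1 and the latter was the member with most counts. HSF1 binds inverted repeats of GAA, so both orders of a pair, GAANNTTC and TTCNNGAA, were searched together with the GC box GGGCGG. Each pair reads the same on both strands, and the GC box was searched on both. The windows hold the 250 bases before the annotated start, written in the direction of the gene, from RefSeq on GRCm38.p6 (the same assembly as mm10). Capitals mark TTCNNGAA, GGGCGG or the reverse complement of the latter.

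Serpinh1, chr7:99353240-99353489, minus strand: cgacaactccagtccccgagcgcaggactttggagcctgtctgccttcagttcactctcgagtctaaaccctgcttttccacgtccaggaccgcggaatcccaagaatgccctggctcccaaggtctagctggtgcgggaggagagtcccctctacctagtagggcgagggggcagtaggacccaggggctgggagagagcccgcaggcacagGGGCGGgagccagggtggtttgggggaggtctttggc
Serpinb6a, chr13:34002795-34003044, minus strand: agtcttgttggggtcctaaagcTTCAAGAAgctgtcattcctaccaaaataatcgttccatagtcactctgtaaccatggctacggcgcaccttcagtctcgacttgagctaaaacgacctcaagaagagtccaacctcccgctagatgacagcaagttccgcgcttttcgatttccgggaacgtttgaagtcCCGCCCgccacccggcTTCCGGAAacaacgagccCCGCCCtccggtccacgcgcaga

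The Serpinb6a window held TTCNNGAA at 2 places and the GC box at 2, without overlap, and the Serpinh1 window held the GC box at 1 place and neither GAA pair. Over all 32851 such windows, 7.17% held TTCNNGAA, 6.69% held GAANNTTC, 12.8% held either of these pairs and 32.7% held GGGCGG. A match of letters is a description of the window and not a measured binding site. Windows were listed for 5 of these 6 serpins, with none for Serpinb1a, and Serpinb6a had another one, further downstream, with none of the 3 motifs. Serpinb6b held the GC box at 1 place, and Serpina1b and Serpinb9b held none of the motifs.

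Depth and identity of the libraries were as follows. Total counts ranged from 1519340 to 2358350 in shBrca2 and from 2043470 to 2452467 in shControl, and a normalized count below is a raw count divided by the size factor of its library. Brca2 had 10, 11 and 14 raw counts in shBrca2 and 33, 52 and 33 in shControl, in the direction of the labels. The largest axis of variation among libraries (41.1% of the variance) did not separate the groups, and shControl replicate 3 stood farthest out on it, so each serpin is also given without that library. Of 10 ductal epithelial markers, 9 were in the table, led by Krt18, Krt19 and Krt8. Together they took from 0.818% to 0.849% of a library's counts in shBrca2 and from 0.853% to 0.933% in shControl. Of the 9, 3 had a positive and 6 a negative log2 fold change (median -0.12). Within that list Krt7 (log2 fold change 1.21, adjusted p = 2.07e-06 by DESeq2) and Sox9 (1.20, adjusted p = 0.0391) were called higher in shBrca2, and their part in the serpin values was not tested. Of the markers of other cell types, the table held 1 of 9 for fibroblasts (Col1a2), 1 of 6 for immune cells (Cd68), 0 of 4 for endothelium, 1 of 6 for acinar cells (Cela1) and 2 of 4 for hepatocytes (Ttr and Apoa1).

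Serpinb1a, which encodes an intracellular inhibitor of neutrophil elastase, cathepsin G and proteinase 3, was about 2.56-fold higher in KPC-shBrca2 than in KPC-shControl cells. The remaining members in the table, Serpinb6a, Serpinb6b, Serpinh1 and Serpina1b, did not pass the test. Genes were called by the DESeq2 likelihood ratio test across the whole table, at an adjusted p below 0.1, provided that the log2 fold change exceeded 0.5 in size and the base mean (mean normalized count over all libraries) exceeded 5. Of the 5 members, 1 was called, and it was higher. Among all 9997 genes with an adjusted p, 1.27% were called, 0.77% as higher and 0.5% as lower. Because the rise of Serpinb1a was the reason for the choice of the set, that count of 1 carries no weight of its own. Of the 4 other members in the table, 4 had a positive log2 fold change, from 0.14 to 1.80, beside 49.9% of all genes. These genes were listed with earlier results known, and nothing is read from that count.

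**Figure D1:**
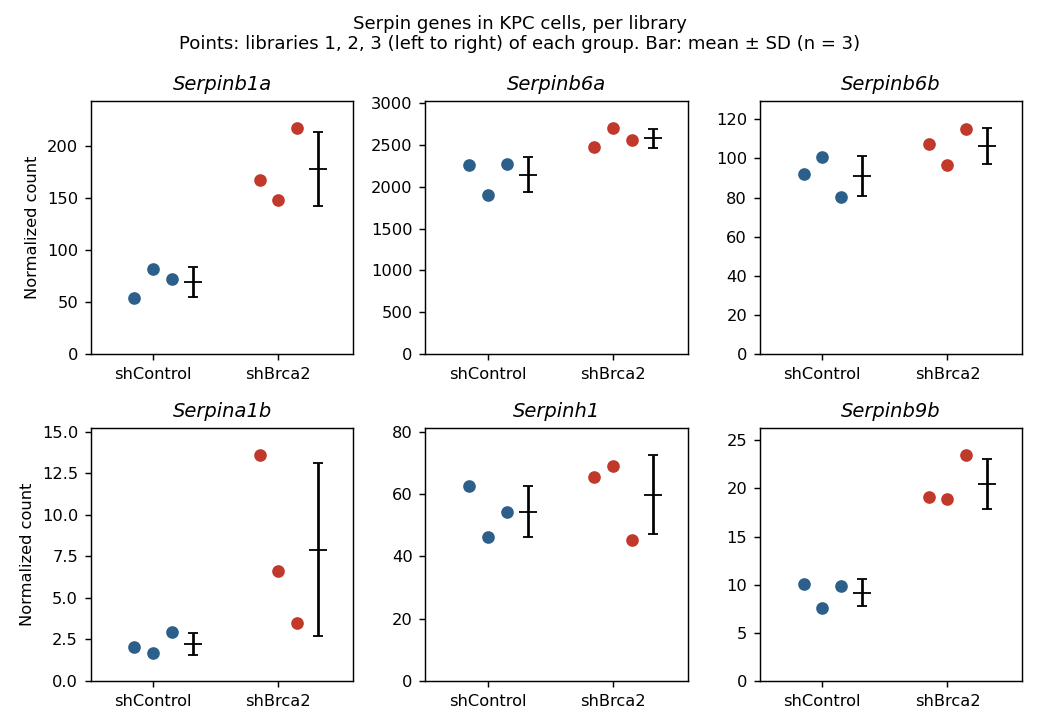
Normalized counts (vertical axis, starting at 0 in each panel) of 6 serpin genes in the 3 shControl (blue) and 3 shBrca2 (red) libraries, with the mean and SD (n = 3) as black bars. The 3 shBrca2 points lie above the shControl points for Serpinb1a, Serpinb6a, Serpina1b and Serpinb9b. Such an upward separation was seen in 10.2% of all genes, and Serpinb1a was chosen for its rise. For Serpinb6b and Serpinh1 the groups overlap through 1 shBrca2 library, replicate 2 and replicate 3 respectively.

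Among the clade B members, Serpinb1a lies on the minus strand of chromosome 13 (mm10, chr13:32842092-32853206). It had 168, 148 and 218 normalized counts after knockdown (shBrca2) against 53.6, 82.2 and 72.2 in shControl. The lowest shBrca2 library was thus above the highest shControl library, as in 10.2% of all genes. The group means were 178 ± 35.7 and 69.3 ± 14.5 (SD, n = 3 each), a log2 fold change of 1.36 with a standard error of 0.25. The spread within a group was similar in relative terms, with coefficients of variation of 20.1% and 20.97%. Without shControl replicate 3 the log2 fold change was 1.38. Over the 6 fits that each left out 1 library the lowest value was 1.18, without shBrca2 replicate 3. These fits reuse the libraries by which Serpinb1a was chosen, so nothing is read from them.

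Serpinb6a, an intracellular inhibitor of cathepsin G and trypsin-like proteases, was by far the member with most counts, at 0.125% of all counts in shBrca2 and 0.104% in shControl. It lies at chr13:33917918-34002794, minus strand. Its normalized counts were 2478, 2703 and 2564 in shBrca2 and 2265, 1902 and 2266 in shControl, so the groups did not overlap. Such a separation upward was seen in 10.2% of all genes. The means were 2581 ± 113 and 2145 ± 210 (SD, n = 3). On the log2 scale the difference was 0.27 ± 0.14 (SE), its 95% interval running from 0.00081 to 0.54. This difference did not pass the DESeq2 test (adjusted p = 0.573) and lay below the fold change required for a call. Without shControl replicate 3 it was 0.31.

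Serpinb6b, a paralog of Serpinb6a at chr13:32956811-32979067 on the plus strand, had 108, 96.4 and 115 normalized counts in shBrca2 and 91.9, 101 and 80.1 in shControl. The groups overlapped, as shBrca2 replicate 2 was below shControl replicate 2. Its log2 fold change was 0.22 ± 0.24 (SE), with a 95% interval from -0.24 to 0.68 and an adjusted p of 0.90 by DESeq2. It was 0.14 without shControl replicate 3. The interval includes changes larger than that of Serpinb6a as well as no change.

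Serpinb9b, which is not a member but a clade B gene related to the granzyme B inhibitor Serpinb9, is close by (chr13:33027414-33040588, plus strand). It had raw counts of 14, 20 and 27 in shBrca2 and 10, 9 and 10 in shControl, or normalized counts of 19.1, 18.9 and 23.5 against 10.1, 7.55 and 9.89. All shBrca2 libraries were above all shControl libraries, as in 10.2% of all genes. At a base mean of 14.8 the log2 fold change of 1.17 ± 0.53 (SE) did not pass the test (adjusted p = 0.468 by DESeq2). Without shControl replicate 3 the log2 fold change was 1.23.

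Serpinb1a, Serpinb6b and Serpinb9b belong to one cluster of clade B genes. Serpinb6b begins 104 kb from Serpinb1a and Serpinb9b 174 kb from it, whereas Serpinb6a is farther along the same chromosome. Within 500 kb of Serpinb1a, 1 gene of the table was not a serpin, Wrnip1, with a log2 fold change of 0.07 ± 0.23 (SE; adjusted p = 0.985 by DESeq2). By the RefSeq positions Wrnip1 ends 19.5 kb from Serpinb1a, while in the GENCODE annotation its span overlaps Serpinb1a on the opposite strand. Whether counting used strand is not given in the sources used here. Around Serpinb6a, 0 of 8 neighbouring genes of the table were called by DESeq2 or edgeR, beside 1.27% and 1.33% of all genes tested. An unadjusted p under 0.05 by DESeq2 was found for 1 of the 8, beside 8.33% of all genes. Ripk1, Nqo2 and 1110046J04Rik overlap Serpinb6a on the opposite strand, with base means of 24.4, 16.2 and 8.54 against 2363 for Serpinb6a. Serpinb6b overlaps a predicted gene, Gm60792, on the same strand and Serpinb1c on the opposite one, and its count is uncertain to that extent.

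Serpina1b, one of several mouse genes for the secreted alpha-1-antitrypsin that inhibits neutrophil elastase, lies at chr12:103728156-103738189 on the minus strand. It had raw counts of 10, 7 and 4 in shBrca2 and 2, 2 and 3 in shControl. After normalization these were 13.6, 6.62 and 3.48 against 2.02, 1.68 and 2.97, so that shBrca2 replicate 3 was barely above the highest control. Summed over libraries, 21 counts stood against 7, a ratio of 3.26 at equal depth. Its 95% counting interval ran from 1.33 to 9.07 (exact binomial), which covers counting error only. Every gene of the table reached at least 6 counts in some library, which Serpina1b did only in shBrca2. Its place in the table thus rests on shBrca2, and nothing is read from the direction or from this interval. With the spread between replicates included, the log2 fold change was 1.80 ± 0.97 (SE), with an interval from -0.10 to 3.70, and it did not pass the test (adjusted p = 0.612 by DESeq2). At this depth neither a rise nor its absence could be shown. Leaving out shBrca2 replicate 1 lowered the log2 fold change to 1.19, and leaving out shControl replicate 3 raised it to 2.06.

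Reads of Serpina1b are also hard to assign. In the last 400 bases of its longest coding GENCODE transcript, 38.5% of all stretches of 50 bases were present in transcripts of other serpin genes, most of them in Serpina1d (29.6%), while the other 5 serpins described here shared 0% by this measure. Serpina1b further overlaps Serpina1d on the same strand in this annotation. Alpha-1-antitrypsin is made chiefly by hepatocytes, and the hepatocyte markers in the table, Ttr and Apoa1, together took from 0.00273% to 0.00483% of counts in shBrca2 and from 0.00114% to 0.00181% in shControl. Of these, Ttr was called higher (log2 fold change 1.34, adjusted p = 0.017 by DESeq2), Apoa1 had a log2 fold change of 0.17 (adjusted p = 0.99), and Alb and Fgb were not analysed here. Whether these levels bear on Serpina1b was not tested.

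Serpinh1 lies at chr7:99345375-99353239 on the minus strand and overlaps no other annotated gene. Its normalized counts were 65.4, 69.0 and 45.2 in shBrca2 and 62.6, 46.1 and 54.4 in shControl. The groups overlapped, since shBrca2 replicates 1 and 2 were above all shControl libraries while replicate 3 had the lowest value of all. The means were 59.9 ± 12.8 and 54.4 ± 8.26 (SD, n = 3). This corresponds to 0.14 ± 0.30 (SE) on the log2 scale and did not pass the test (adjusted p = 0.969 by DESeq2). The 95% interval ran from -0.45 to 0.73 and includes no change as well as changes in either direction. The value without shControl replicate 3 was 0.14, and it lay between 0.01 and 0.31 over the 6 fits that each left out 1 library.

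**Figure D2:**
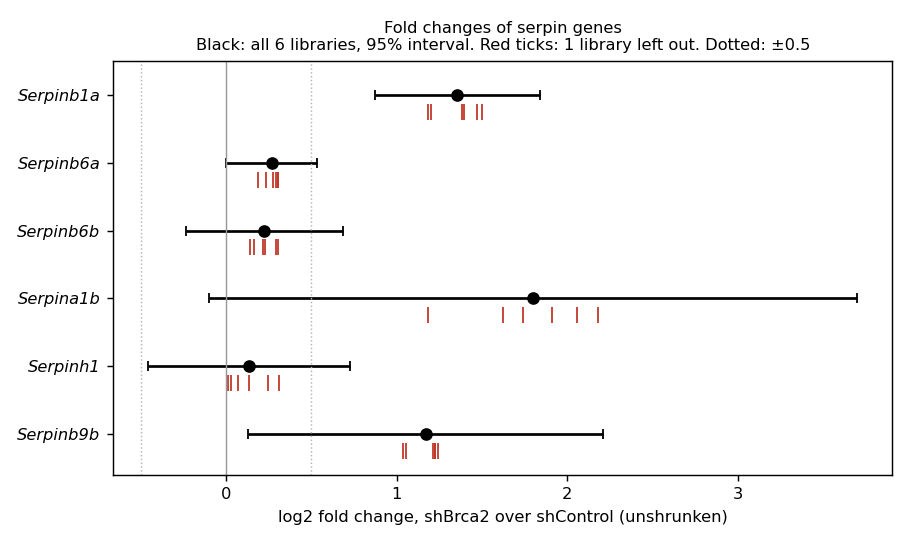
Log2 fold change of shBrca2 over shControl (horizontal axis) for 6 serpin genes, with black points and 95% intervals from all 6 libraries and red ticks for the fits that each left out 1 library. All ticks of Serpinb1a (1.36) lie beyond the dotted line at 0.5, those of Serpinb6a (0.27) below it, and the interval of Serpina1b is the widest. Serpinb1a was chosen for its rise, so its ticks are a description only.

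To describe the shape of the Serpinb1a pattern, the 5680 other genes with a base mean of at least 50 were ranked by Pearson's r with Serpinb1a, on log2 of the normalized count plus 1, over the 6 libraries. The 5 nearest were Fbxo9 (r = 0.995), Sptssb (0.994), Ccnq (0.989), Psma7 (0.988) and Txndc5 (0.988). These genes share the libraries and the group difference with Serpinb1a, and the values are descriptions chosen as the highest of many. The choice favours genes with shBrca2 libraries above the shControl libraries, as all 5 had, but the sizes differed. Sptssb, a small subunit of serine palmitoyltransferase, had a log2 fold change of 1.36, with means of 105 ± 11.1 in shBrca2 and 40.9 ± 7.65 in shControl (SD, n = 3, normalized counts). Psma7, a proteasome subunit, had a log2 fold change of 0.46, Fbxo9 0.39, Ccnq 0.41 and Txndc5, an endoplasmic reticulum disulfide isomerase, 0.63. No test is given for these 5 genes, because they were picked by likeness to Serpinb1a, itself chosen for its group difference.

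Genes related to serpin functions were then read out of the same fit, as 5 lists holding 76 different genes of the table. The lists covered candidate target proteases, plasminogen and clearance receptors, other protease inhibitors, collagen synthesis and the inflammasome. By DESeq2, 0 of the 76 were called, and edgeR called 1, beside 1.27% and 1.33% of all genes tested. An unadjusted p under 0.05 was found by DESeq2 for 12 of the 76 (15.8%), against 884 of 10616 genes overall (8.33%). The lists were chosen with earlier results of these data known, so nothing is read from that share. The median log2 fold change of the 76 genes was 0.01, beside -0.00034 for all genes.

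Of 34 candidate target proteases, 12 were in the table, 8 with a positive and 4 with a negative log2 fold change (median 0.07). The granule proteases Elane, Prtn3, Ctsg and Gzmb, which Serpinb1a, Serpinb6a and Serpinb9 are known to inhibit, were not analysed here. The lysosomal proteases Ctsd (log2 fold change 0.04 ± 0.16, SE) and Ctsh (0.01 ± 0.14) and the proprotein convertase Furin (-0.31 ± 0.20), a target of Serpinb8, had DESeq2 adjusted p-values of 0.986, 0.989 and 0.753. Plat, which encodes the tissue plasminogen activator, a target of Serpine2, had 117, 108 and 141 normalized counts in shBrca2 and 99.0, 99.8 and 91.95 in shControl. Its log2 fold change was 0.33 ± 0.23 (SE; adjusted p = 0.774 by DESeq2), and Plat was named after its values were seen. Plau, the urokinase gene, was not analysed here. Pcsk6, another proprotein convertase named after its values were seen, had a log2 fold change of 0.64 ± 0.24 (SE; adjusted p = 0.284 by DESeq2) and was called without shControl replicate 3 (0.87, adjusted p = 0.0896). In the other direction, also named after their values were seen, the serine proteases Prss22 (log2 fold change -1.02 ± 0.38, SE; adjusted p = 0.258 by DESeq2) and Htra1 (-0.48 ± 0.27; adjusted p = 0.653) had all shBrca2 libraries below all shControl libraries, as 10.1% of all genes had, without passing the test.

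The plasminogen and clearance list, which covers receptors for urokinase, plasminogen, tissue factor and serpin complexes, had all 16 genes in the table, 8 positive and 8 negative, with a median log2 fold change of 0.04. Anxa2 (0.19 ± 0.15, SE) and S100a10 (0.22 ± 0.14), the 2 parts of a cell surface receptor for plasminogen, had DESeq2 adjusted p-values of 0.850 and 0.720. Plaur, the urokinase receptor, had mean normalized counts of 1140 in both groups (log2 fold change -0.0010, adjusted p = 0.995).

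Protease inhibitors outside the serpin family were represented by 10 of 22 genes, 7 positive and 3 negative, with a median log2 fold change of 0.20. The secreted inhibitor-like protein gene Wfdc2 (-0.10 ± 0.13, SE), Timp2, an inhibitor of metalloproteinases (0.07 ± 0.15), and Cst3, the cysteine protease inhibitor cystatin C (0.38 ± 0.15), had most counts, with DESeq2 adjusted p-values of 0.936, 0.965 and 0.322. For Cst3 the shBrca2 libraries (1158, 1263 and 983) lay above the shControl libraries (887, 825 and 906), as in 10.2% of all genes, without passing the test.

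As Serpinh1 serves collagen, 42 genes for collagen chains and their processing were listed, of which 33 were in the table. Of the 33, 12 were positive and 21 negative, with a median log2 fold change of -0.20. DESeq2 called 0 of the 33, beside 1.27% of all genes tested. P4hb (0.24 ± 0.15, SE), a subunit of prolyl hydroxylase, Kdelr1 (0.18 ± 0.13), a retrieval receptor of the endoplasmic reticulum, and Col18a1 (0.01 ± 0.17) had adjusted p-values of 0.700, 0.813 and 0.989. Fkbp10, a prolyl isomerase that works on procollagen as Serpinh1 does, was the 1 listed gene that edgeR called (log2 fold change -1.15, adjusted p = 0.0893 by edgeR) and is named after its values were seen. Its normalized counts were 16.3, 23.6 and 15.7 in shBrca2 and 37.4, 38.6 and 49.4 in shControl, while DESeq2 gave an adjusted p of 0.163. For Fkbp10 and Serpinh1 the difference between the 2 changes was not tested.

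Since Serpinb1a is known to restrain inflammatory caspases, a list of 11 inflammasome genes was included, of which 7 were in the table, 6 positive and 1 negative (median log2 fold change 0.20). Gsdmd, the pore-forming gasdermin, had a log2 fold change of -0.18 ± 0.14 (SE), Ninj1 one of 0.20 ± 0.18 and Casp8 one of 0.10 ± 0.24, with DESeq2 adjusted p-values of 0.852, 0.876 and 0.976. Casp1 was not analysed here.

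**Figure D3:**
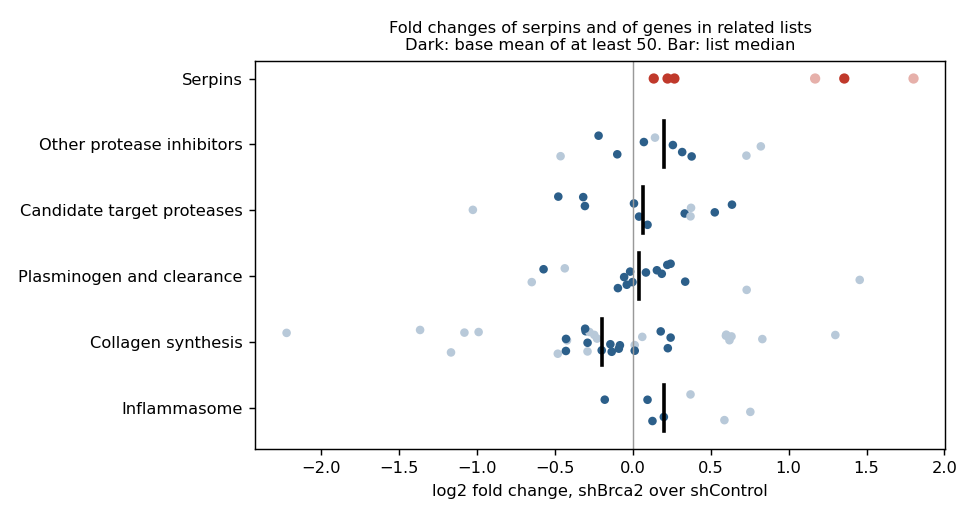
Log2 fold change of shBrca2 over shControl (horizontal axis) for each gene of the 5 lists and for 6 serpins (red), 1 point per gene, dark where the base mean is at least 50, with black bars at the list medians. The list medians lie between -0.20 and 0.20, and the points farthest from 0 in the lists are pale.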

How the data were processed

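RNA of 6 cultured KPC libraries, 3 shBrca2 and 3 shControl by source name, was sequenced from the 3' end by a variation of MARS-seq. The deposited values are whole read counts by gene symbol, which the authors neither normalized nor pooled. The submitters' processing notes name bcl2fastq, cutadapt, STAR 2.4.2a, HTSeq, DESeq2 and mm10. Annotation, strand setting and molecular identifiers are not given in the sources used here. Counts of 3' ends are independent of transcript length. Each listed gene reached at least 6 counts in some library. Totals ranged from 1519340 to 2452467 counts, and counting error is relatively larger for low genes.

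Counts were tested with DESeq2 1.42.0 in R 4.3.3 (median-of-ratios size factors, likelihood ratio test for group, unshrunken fold changes), following the study's methods, with Benjamini-Hochberg adjustment over all genes and an independent filter at a base mean of 4.64. Alternatives were edgeR 4.0.16 (quasi-likelihood, TMM), the Wald test, TMM factors or totals as size factors, other filters and thresholds, and each library left out. The pipeline was tested on simulated counts. No batch was labelled, and no batch term was fitted.

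Members and lists were chosen with earlier results of these data known. Named genes were the members and the other clade B serpins in the table. Of each list, the called genes and the 3 with the highest base mean were named. So were called neighbours within 500 kb and the 5 genes most like Serpinb1a. Serpins of other clades outside the listed members were not examined here. Wrnip1, Ripk1, Nqo2 and other uncalled genes beside or overlapping a serpin are named for their position only. Other genes outside this rule are marked where they appear. Positions and windows came from RefSeq (GRCm38.p6), overlaps and transcript ends from GENCODE vM39, and no set test was run. Some items that fall under this rule are not reported here.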

Additional observations from a re-analysis of the deposited data

How the results depend on the processing

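Serpinb6a, Serpinb6b, Serpinh1 and Serpinb9b kept a positive log2 fold change in every alternative that gave a value. Serpinh1 came as low as 0.01 when 1 library was left out. All alternatives reuse the same libraries, and nothing is read from the direction of Serpina1b. With all 6 libraries the log2 fold change of Serpinb1a stayed at 1.36, that of Serpinb6a at 0.27, of Serpinh1 at 0.14 and of Serpina1b at 1.80, and that of Serpinb6b was 0.22 or 0.23. DESeq2 gave Serpina1b no adjusted p in 9 of its 10 alternatives and edgeR did not test it. Across the fits that each left out 1 library, Serpina1b ranged from 1.19 to 2.18 and Serpinb6a from 0.19 to 0.31. Serpinb9b was called in 0 of its 12 alternatives, 4 of which gave it no adjusted p. All called genes numbered 127, and from 47 to 140 when 1 library was left out, with 47 in the absence of shBrca2 replicate 3, 55 in that of shControl replicate 2 and 81 in that of shBrca2 replicate 1. The list genes called rose from 0 to 1 with edgeR (Fkbp10), and ranged from 0 to 1 when 1 library was left out (Pcsk6 without shControl replicate 3), and the cause was not tested. No paired analysis was possible because the labels carry no replicate numbers, and those used here only name libraries in the order of their records. Depth limits Serpina1b and Serpinb9b, at base means of 5.06 and 14.8.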
